A study of Mus musculus with 8 samples.

Results

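The regions described here lie at 9 genes that govern passage through the G1 phase of the cell cycle: the D-type cyclin genes Ccnd2 and Ccnd3, the kinase genes Cdk4 and Cdk6, the inhibitor genes Cdkn1a, Cdkn1b and Cdkn2c, the retinoblastoma gene Rb1, and E2f2. A peak of open chromatin was taken when its summit lay in the body of one of these genes or within 20 kb of it (GENCODE genes on mouse GRCm38). Over 8 peak lists, 1086 peaks of 767727 met this rule, and merging those that overlapped gave 214 regions of 174718. No region belonged to more than 1 of the 9 genes. A peak was present in all 8 lists for 79 of the 214 regions, against 47875 of all 174718, and only these regions were tested for a change in strength.

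ATAC-seq, which reads open chromatin, was run on B3 cells. B3 is a mouse line of pre-B cells, and here it carried Ikaros-ERt2, a transduced fusion of the transcription factor Ikaros (IKZF1) with a hormone-binding domain that keeps it out of the nucleus until 4-hydroxytamoxifen (4-OHT) is added. All 8 libraries came from these transduced cells. A pair was untreated (0 h), and a pair had each of 30 min, 1 h and 2 h in 4-OHT at 500 nM. The 0 h cells are labelled as having had no treatment, so effects of 4-OHT or its solvent and effects of Ikaros cannot be told apart, and the labels do not say that the 2 replicates of a time point were separate cultures, so the p-values measure a spread that may be technical. The study asks how Ikaros represses transcription within hours, and it also followed arrest in G1 after longer induction, which was not analysed here.

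D-type cyclins activate CDK4 and CDK6, and these kinases phosphorylate the retinoblastoma protein, which then releases E2F factors to switch on genes of DNA replication. The products of Cdkn1a and Cdkn1b bind and hold back cyclin-kinase complexes, while the product of Cdkn2c binds CDK4 and CDK6 themselves. In the B lineage, signals of the interleukin-7 receptor and of the pre-B cell receptor drive proliferation through the D-type cyclins, and cells leave the cycle before they rearrange their light chain genes.

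Ikaros recognises short DNA sites built around GGAA or GGGA. The sequences on which the results below turn are shown on the plus strand of GRCm38, 200 bp around the summit, with the words GGAA and GGGA and their reverse complements TTCC and TCCC in capitals. The first group holds regions that fell in rank after induction, the second those that rose, and the third the strongest lost and the strongest gained region, which lie near each other in the same Cdk6 intron. The Cdk4 region of the first group is given over 187 bp, without the untranslated exon of a neighbouring gene, and a region inside Rb1 that fell is not shown, because such an exon covers most of it.
Ccnd3, intron, 3.0 kb from the start, lower, chr17:47508001-47508200: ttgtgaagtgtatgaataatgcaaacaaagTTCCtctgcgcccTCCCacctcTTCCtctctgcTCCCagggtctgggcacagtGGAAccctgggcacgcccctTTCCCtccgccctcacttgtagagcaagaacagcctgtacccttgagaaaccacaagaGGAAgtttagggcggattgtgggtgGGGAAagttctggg
Ccnd3, 16.7 kb from the start, intron, lower at 1 h, chr17:47521653-47521852: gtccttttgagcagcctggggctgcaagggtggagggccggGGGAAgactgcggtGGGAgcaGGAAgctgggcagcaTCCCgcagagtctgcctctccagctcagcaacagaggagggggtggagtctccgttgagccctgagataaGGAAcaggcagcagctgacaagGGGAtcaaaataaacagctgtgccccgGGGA
Ccnd3, 90.6 kb from the start, internal promoter, lower, chr17:47595524-47595723: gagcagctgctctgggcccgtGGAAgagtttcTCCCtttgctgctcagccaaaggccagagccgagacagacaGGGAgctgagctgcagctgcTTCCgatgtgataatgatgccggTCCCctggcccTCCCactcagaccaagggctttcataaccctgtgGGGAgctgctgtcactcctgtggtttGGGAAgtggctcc
Cdk4, downstream, lower, chr10:127070265-127070451: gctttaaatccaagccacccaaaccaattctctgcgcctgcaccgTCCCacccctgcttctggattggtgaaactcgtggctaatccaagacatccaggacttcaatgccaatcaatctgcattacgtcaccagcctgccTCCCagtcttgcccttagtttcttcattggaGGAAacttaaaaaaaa
Cdk6, intron, 131.4 kb from the start, lower, chr5:3472829-3473028: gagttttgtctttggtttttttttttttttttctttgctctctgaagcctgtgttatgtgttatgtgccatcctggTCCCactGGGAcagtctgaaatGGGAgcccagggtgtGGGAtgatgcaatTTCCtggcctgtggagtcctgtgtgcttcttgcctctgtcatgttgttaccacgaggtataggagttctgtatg
Cdk4, downstream, higher, chr10:127075119-127075318: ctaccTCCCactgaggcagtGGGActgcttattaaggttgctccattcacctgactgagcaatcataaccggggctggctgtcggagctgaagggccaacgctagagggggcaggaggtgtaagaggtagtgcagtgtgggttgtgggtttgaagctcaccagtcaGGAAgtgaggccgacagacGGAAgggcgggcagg
Cdkn1a, 18.9 kb upstream, higher, chr17:29071972-29072171: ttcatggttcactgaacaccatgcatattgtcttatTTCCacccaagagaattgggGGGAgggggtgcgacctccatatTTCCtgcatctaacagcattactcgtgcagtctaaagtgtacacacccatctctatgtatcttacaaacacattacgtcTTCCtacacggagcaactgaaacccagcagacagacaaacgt
E2f2, downstream, higher, chr4:136200771-136200970: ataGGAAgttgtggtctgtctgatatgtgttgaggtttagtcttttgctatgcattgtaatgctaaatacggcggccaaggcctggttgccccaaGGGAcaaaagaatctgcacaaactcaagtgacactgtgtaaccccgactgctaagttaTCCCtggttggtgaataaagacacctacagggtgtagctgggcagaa
Cdk6, intron, 149.1 kb from the start, lost, chr5:3490448-3490647: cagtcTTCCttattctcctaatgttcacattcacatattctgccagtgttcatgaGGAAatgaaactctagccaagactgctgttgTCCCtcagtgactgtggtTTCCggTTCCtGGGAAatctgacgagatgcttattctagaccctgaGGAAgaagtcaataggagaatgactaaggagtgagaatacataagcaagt
Cdk6, intron, 129.5 kb from the start, gained, chr5:3470920-3471119: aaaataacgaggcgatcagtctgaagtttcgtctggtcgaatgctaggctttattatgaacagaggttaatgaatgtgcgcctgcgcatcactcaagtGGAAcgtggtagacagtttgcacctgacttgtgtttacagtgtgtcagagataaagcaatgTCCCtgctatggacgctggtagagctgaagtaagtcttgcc

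Strength is given as a percentile. Each list gives every peak a fold, its fragment pileup relative to the local background, and the percentile is the rank of that fold among all peaks of the same list, so that 100 is the strongest peak of a library. The lists held 85903 to 103897 peaks, and the background that stands for sequencing depth was 0.26 to 0.405 fragments per base, lowest in the second 0 h library. Summits were covered by 11 to 14 fragments in the median peak. Percentiles drifted upwards as the lists grew: the median of the 47875 tested regions was 71.6 and 69.1 in the 0 h libraries and 75.2 and 74.1 at 2 h. The test therefore used ranks among those 47875 regions, expressed as normal scores in a limma model, and its result is called the shift, in units of the normal score. A lower rank can come from a site that is open in fewer cells or less open in each cell, and these cannot be told apart in bulk libraries. As a check of the label, the 8 pre-B markers reported here, among them Cd79a, Cd79b, Igll1, Ebf1 and Pax5, had a peak within 1 kb of a start in both 0 h lists, against 0 of 4 T, 0 of 4 myeloid and 0 of 3 erythroid markers. Cd3g, a T cell gene, had such a peak in 7 of the 8 lists, 1 of them of 0 h, and Cd4 in 4 treated lists.

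After 2 h in 4-OHT, most of these regions were not past the threshold, while a few had moved far. Of the 79 tested regions, 5 were lower at 2 h than at 0 h and 3 were higher (limma, adjusted p under 0.01 over all 47875 regions), which is 6.33% and 3.8%. Over all tested regions 4.71% were lower and 2.28% higher, so the shares at these 9 genes lay near the background. At 1 h, 6 were lower and 1 was higher (7.59% and 1.27%), where the background was 2.51% lower and 1.1% higher. At 30 min none passed in either direction, near these genes or over the whole table (limma, background 0% lower and 0% higher), while before adjustment 13 of the 79 were lower and 4 higher at p under 0.05 (4759 and 4552 over all tested regions). The median shift of the 79 regions at 2 h was −0.14, against 0.06 over all tested regions. Of the 79 shifts 46 were negative (58.2%, background 46.7%) and 33 positive (41.8%, background 53.3%). Both 2 h libraries lay below both 0 h libraries in 26 regions (32.9%, background 24.3%) and above them in 22 (27.8%, background 40.6%).

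**Figure D1:**
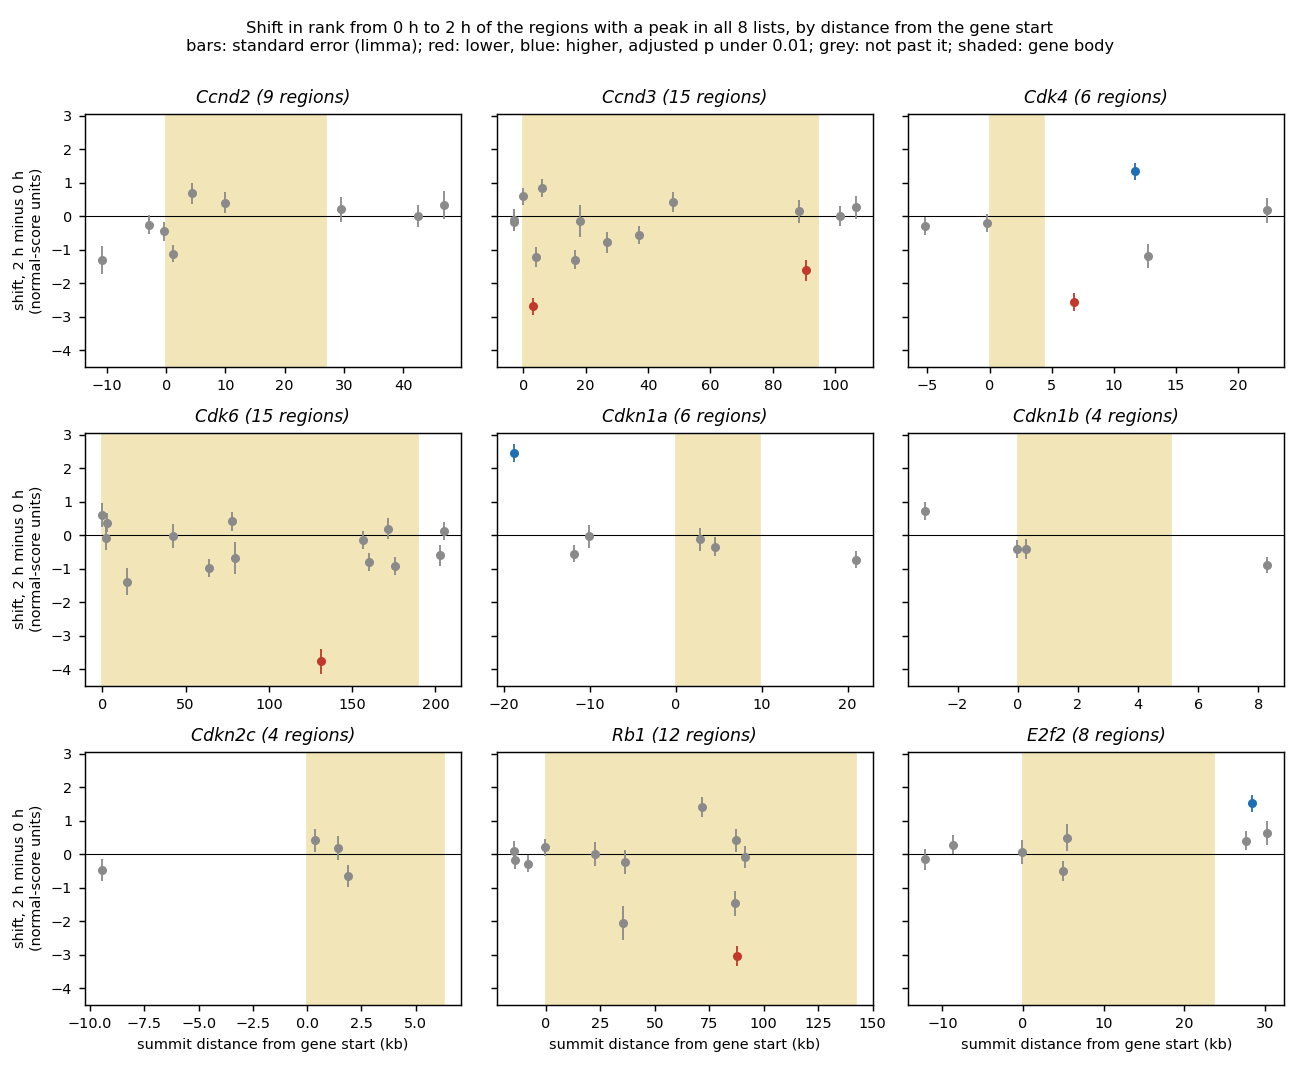
Shift in rank from 0 h to 2 h (y axis, normal-score units, error bars 1 standard error) of the 79 tested regions, against the distance of the summit from the gene start in kb along the direction of transcription (x axis), with 1 panel for each of the 9 genes and the gene body shaded. The 5 red points (lower) and 3 blue points (higher) are past an adjusted p of 0.01, and the Cdk6 intron point at −3.76 is the lowest of all.

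The calls at 2 h depended on having 2 libraries in each group. Leaving out any 1 library of 0 h or 2 h left fewer regions past the threshold, fewest without the second 0 h library, the shallowest. Without that library the 8 regions called at 2 h kept their directions, with shifts of −3.83 to −1.74 and of 1.36 to 2.09. Without the first 0 h library the shifts were −3.66 to −1.46 and 1.28 to 2.58. Whether depth has a part in these results was not tested.

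The D-type cyclin genes came first. Ccnd3, whose product drives the expansion of pre-B cells, held 38 regions, of which 15 were tested, and 2 of them were lower at 2 h and 3 at 1 h. The clearest lies in an intron 3.0 kb from the gene start (chr17:47507997-47508261). Its percentile was 87.2 and 86.8 before induction, 65.8 and 56.8 after 30 min, 40.0 and 39.0 after 1 h and 24.3 and 9.16 after 2 h. The libraries of each time point lay below all those of the time before, and the fragments at the summit went from 80 and 57 to 20 and 16. The shift was −1.99 at 1 h (SE 0.266, adjusted p = 0.00293) and −2.69 at 2 h (SE 0.266, adjusted p = 0.000958).

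A second Ccnd3 region lies 90.6 kb from the outer start and 444 bp from an internal start site, which serves short Ccnd3 transcripts (chr17:47595490-47595755). Its percentile was 88.4 and 81.4 before induction, 63.8 and 47.6 after 30 min, 29.2 and 36.3 after 1 h and 37.9 and 56.3 after 2 h. It was lowest at 1 h, with no overlap with 0 h at any later time. The shift was −2.12 at 1 h (adjusted p = 0.00384) and −1.60 at 2 h (SE 0.314, adjusted p = 0.00759), and the call at 2 h was lost in 11 of 17 other settings, where the adjusted p reached 0.0614. Another, in an intron 16.7 kb from the start (chr17:47521436-47521888), had percentiles of 96.2 and 93.4 before induction, 87.0 and 83.7 after 30 min, 70.3 and 61.1 after 1 h and 68.9 and 81.4 after 2 h. It was lower at 1 h (shift −1.68, SE 0.288, adjusted p = 0.00651), not past the threshold at 2 h (adjusted p = 0.0135), and its call at 1 h was lost in 9 of 17 settings.

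Other Ccnd3 regions were not past the threshold. The region 38 bp from the outer start, named after its values were seen, had percentiles of 23.9 and 26.5 before induction and 52.6 and 47.5 after 2 h, with no overlap, but a shift of 0.59 that did not pass (adjusted p = 0.139). The largest positive shift near the gene, in an intron 6.2 kb from the start, went from 74.0 and 75.8 to 91.4 and 93.5 (shift 0.83, adjusted p = 0.0532). Between it and the region at 3.0 kb lay another intron region, 4.2 kb from the start and named after its values were seen, with percentiles of 51.1 and 52.0 before induction and 27.2 and 13.8 after 2 h (shift −1.20, adjusted p = 0.02), so fitted shifts of both signs occurred around the called region and none of these 3 passed. Another internal promoter region lies 88.4 kb from the outer start and 43 bp from a Ccnd3 start, and is also named after its values were seen. Its percentiles were 74.5 and 70.8 before induction and 88.1 and 69.5 after 2 h, which overlap (shift 0.15, SE 0.34, limma adjusted p = 0.789).

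Ccnd2, which encodes the cyclin most directly induced by interleukin-7 and pre-B receptor signals, held 14 regions, 9 of them tested, and none was past the threshold at any time. Its promoter region, 5 bp from a start site (chr6:127150965-127151121), had percentiles of 62.5 and 67.3 before induction, 65.0 and 58.0 after 30 min, 45.4 and 46.7 after 1 h and 36.6 and 36.8 after 2 h. Both 2 h and both 1 h libraries lay below all 4 earlier ones. The shift at 2 h was −1.11 (SE 0.257, adjusted p = 0.0154), and it passed only with peaks of −log10 q of at least 5 (adjusted p = 0.00821) or at a threshold of 0.05. The most negative shift, in a region 10.9 kb upstream (percentile 91.9 and 84.6 at 0 h, 52.4 and 71.3 at 2 h), was −1.30 with an adjusted p of 0.0529. The most positive, 0.68 in an intron 4.3 kb from the start, had an adjusted p of 0.148.

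**Figure D2:**
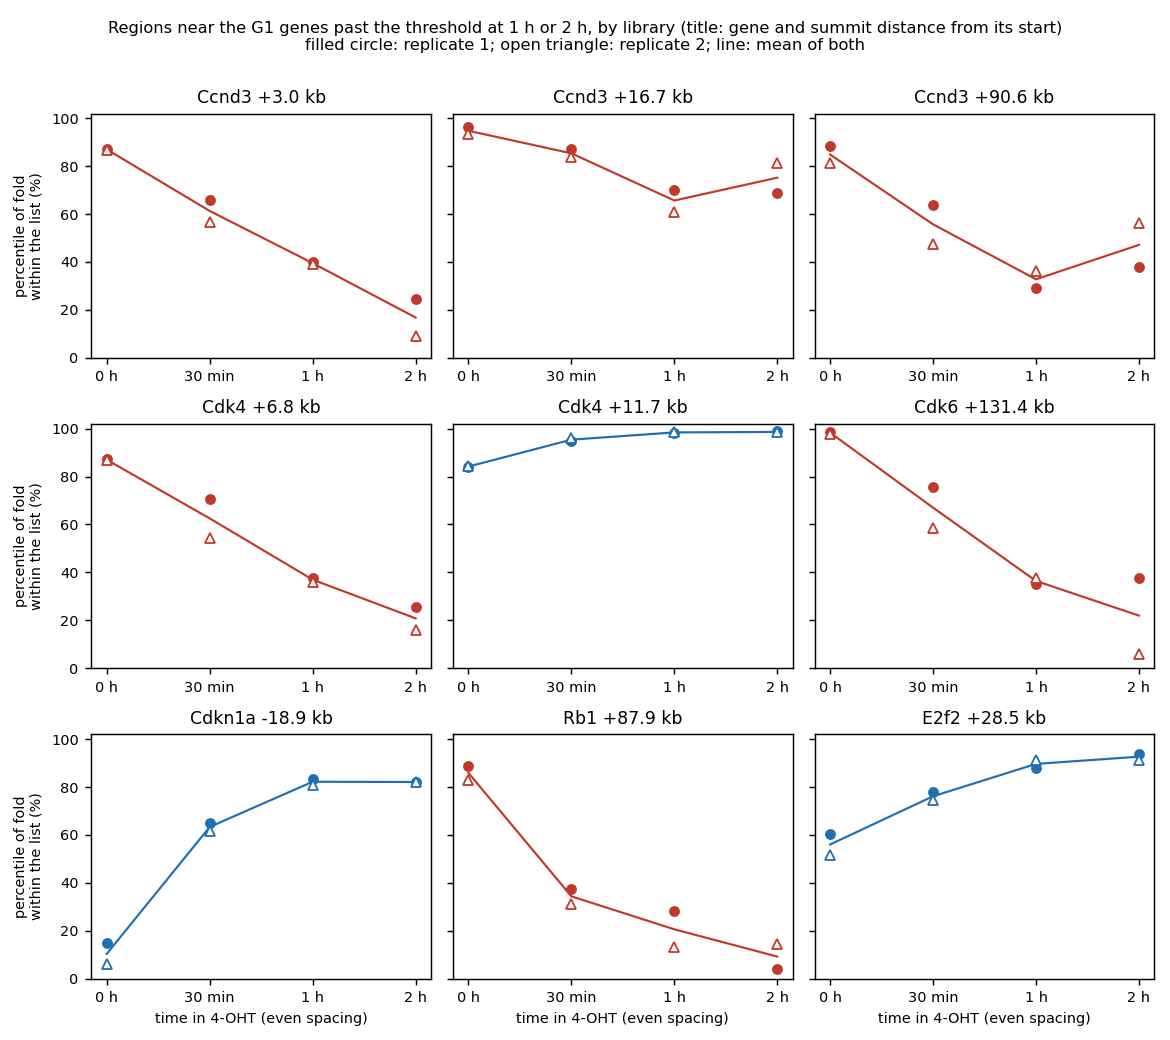
Percentile of the fold within the list (y axis, %) in each of the 8 libraries, at 0 h, 30 min, 1 h and 2 h (x axis, evenly spaced), for the 9 regions past the threshold at 1 h or 2 h. Circles are replicate 1, triangles replicate 2 and lines their mean, and the titles give the gene and the distance from its start. The red regions all stood at 81.4 or above at 0 h, while the blue ones began between 5.93 and 84.6 and ended at 82.0 or above. These levels only describe the regions, which were chosen by the same libraries and by a peak in all 8 lists.

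Cdk6, the kinase gene with the most regions, held 55, of which 15 were tested and 1 was called. That region, in an intron 131.4 kb from the start and inside the antisense gene Gm17590 (chr5:3472710-3473093), had the most negative shift of the 79. Its percentile was 98.8 and 97.9 before induction, 75.6 and 58.5 after 30 min, 35.01 and 37.8 after 1 h and 37.9 and 6.0 after 2 h. Summit fragments went from 62 and 47 to 19 and 13, then 9 and 9, and finally 10 and 6. The replicates of 2 h were far apart, yet both lay below all libraries of 0 h and 30 min. The shift was −2.15 at 30 min (adjusted p = 0.027), −3.28 at 1 h (SE 0.381, adjusted p = 0.00236) and −3.76 at 2 h (SE 0.381, adjusted p = 0.000968).

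The same intron held the strongest lost and the strongest gained region of the 9 genes. A region 17.6 kb further along (chr5:3490458-3490645) stood at the 95.8th and 85.0th percentile at 0 h with 50 and 26 fragments, and none of the 6 lists after induction had a peak in it. A region 1.9 kb before the falling one (chr5:3470933-3471125) had no peak in either 0 h list. It then stood at 46.3 and 54.0 after 30 min, 82.7 and 74.4 after 1 h and, with 30 and 28 fragments, 87.7 and 86.7 after 2 h. Regions of this intron within 20 kb of each other thus differed in direction, by presence and absence for these 2 and by the test for the third. The Cdk6 promoter region (chr5:3344406-3344619), 235 bp from a start site, had percentiles of 50.3 and 53.3 before induction and 66.9 and 69.8 after 2 h, which do not overlap, with a shift of 0.37 that did not pass (adjusted p = 0.383). The most positive shift of the gene, 237 bp before its outermost start, was 0.61 (adjusted p = 0.243).

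Cdk4 is a short gene in a dense neighbourhood and held 12 regions, 6 of them tested, with 1 lower and 1 higher. The lower one lies 2.4 kb beyond the gene end, between the outer 5′ end of Tspan31, 88 bp away, and the start of A730063M14Rik, 23 bp away (chr10:127070226-127070512). Its percentile was 87.3 and 86.9 before induction, 70.7 and 54.4 after 30 min, 37.7 and 36.2 after 1 h and 25.6 and 15.9 after 2 h. Each time point lay below the one before without overlap. The shift at 2 h was −2.55 (SE 0.271, adjusted p = 0.00106), and at 1 h −2.09 (adjusted p = 0.00288).

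The higher Cdk4 region lies 7.3 kb beyond the gene end and 65 bp from the outermost 5′ end of Agap2 (chr10:127075121-127075411). Its percentile was 83.8 and 84.6 before induction, 94.8 and 96.1 after 30 min, 98.2 and 98.8 after 1 h and 98.9 and 98.5 after 2 h. It began strong and ended among the strongest peaks of each list. The shift was 1.34 at 2 h (SE 0.256, adjusted p = 0.00678), and this call was lost in 9 of 17 settings (adjusted p up to 0.0437). The Cdk4 promoter region itself, 202 bp before the start (chr10:127063202-127063681), stood at 86.1 and 88.0 before induction and 82.7 and 87.9 after 2 h, which overlap (shift −0.21, SE 0.262, adjusted p = 0.616). A gained region 3.1 kb upstream, 203 bp from a start of March9, had no peak at 0 h and stood at 55.3 and 57.6 at 2 h.

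Among the inhibitor genes, only Cdkn1a had a called region. Cdkn1a held 13 regions, 6 of them tested, and 1 was higher, 18.9 kb upstream and inside Trp53cor1, a long non-coding RNA gene known as a target of the tumour suppressor p53 (chr17:29071713-29072235). Its percentile was 14.7 and 5.93 before induction, 65.2 and 61.6 after 30 min, 83.5 and 81.0 after 1 h and 82.0 and 82.2 after 2 h. The 30 min libraries already lay far above those of 0 h, and the 1 h and 2 h libraries lay close together. Fragments at the summit went from 10 and 6 to 38 and 36. The shift was 1.66 at 30 min (adjusted p = 0.0199), 2.47 at 1 h (adjusted p = 0.00236) and 2.45 at 2 h (SE 0.26, adjusted p = 0.00106). Its call at 2 h was lost without the second 0 h library (shift 2.09) or the second 2 h library (shift 2.43). The region had no value with summit windows or with peaks of −log10 q of at least 5, as it was then not in all lists. With summit windows the merged peaks no longer formed a region found in all lists, so their summits did not all lie close together. Which libraries had a summit elsewhere was not tested. The sequence shown above, the Ikaros words in it and the fragments at the summit may therefore not describe the same peak in every library.

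The other named regions of Cdkn1a had no call. Its promoter region, 30 bp from a start site (chr17:29093508-29093844), spread from 47.1 to 73.8 at 0 h and stood at 65.7 and 61.2 at 2 h, inside that spread (shift −0.12, adjusted p = 0.832). A region 20.9 kb from the start, on the downstream side, had a shift of −0.73 (adjusted p = 0.0786). A weak peak 14.5 kb upstream, with percentiles of 26.0 and 14.2 at 0 h, was lost. A region 25.2 kb from the start, inside Rab44, was gained and stood at 59.7 and 67.9 at 2 h.

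Cdkn1b, whose product restrains cyclin-kinase complexes in quiescent cells, held 16 regions, 4 of them tested, with none past the threshold. Its promoter region, 27 bp from the start (chr6:134920177-134920458), was the strongest of the 9 promoter regions, at 92.1 and 93.6 before induction and 85.9 and 91.0 after 2 h (shift −0.41, SE 0.28, adjusted p = 0.336). A region 3.1 kb upstream went from 42.7 and 47.6 to 67.5 and 76.0 (shift 0.72, adjusted p = 0.0879), and a region near the non-coding gene Lockd, 8.3 kb from the start, from 82.6 and 84.0 to 67.5 and 63.8 (shift −0.89, adjusted p = 0.0341). Neither pair of groups overlapped, and neither passed. Inside the gene, an intron region 1.2 kb from the start was gained (25.6 and 53.0 at 2 h), while a region 2.6 kb from the start, in an untranslated exon, was lost from the 48.7th and 39.4th percentile.

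Cdkn2c, the inhibitor gene whose product binds CDK6 and CDK4, held 16 regions and 4 tested ones, and no region there was called, lost or gained at 2 h. Its promoter region, 54 bp from an internal start (chr4:109665252-109665436), stood at 72.8 and 87.4 before induction and 61.9 and 75.2 after 2 h, which overlap, with a shift of −0.65 (SE 0.327, adjusted p = 0.188). The most positive shift, 0.41 at 387 bp from the outer start, had an adjusted p of 0.44.

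**Figure D3:**
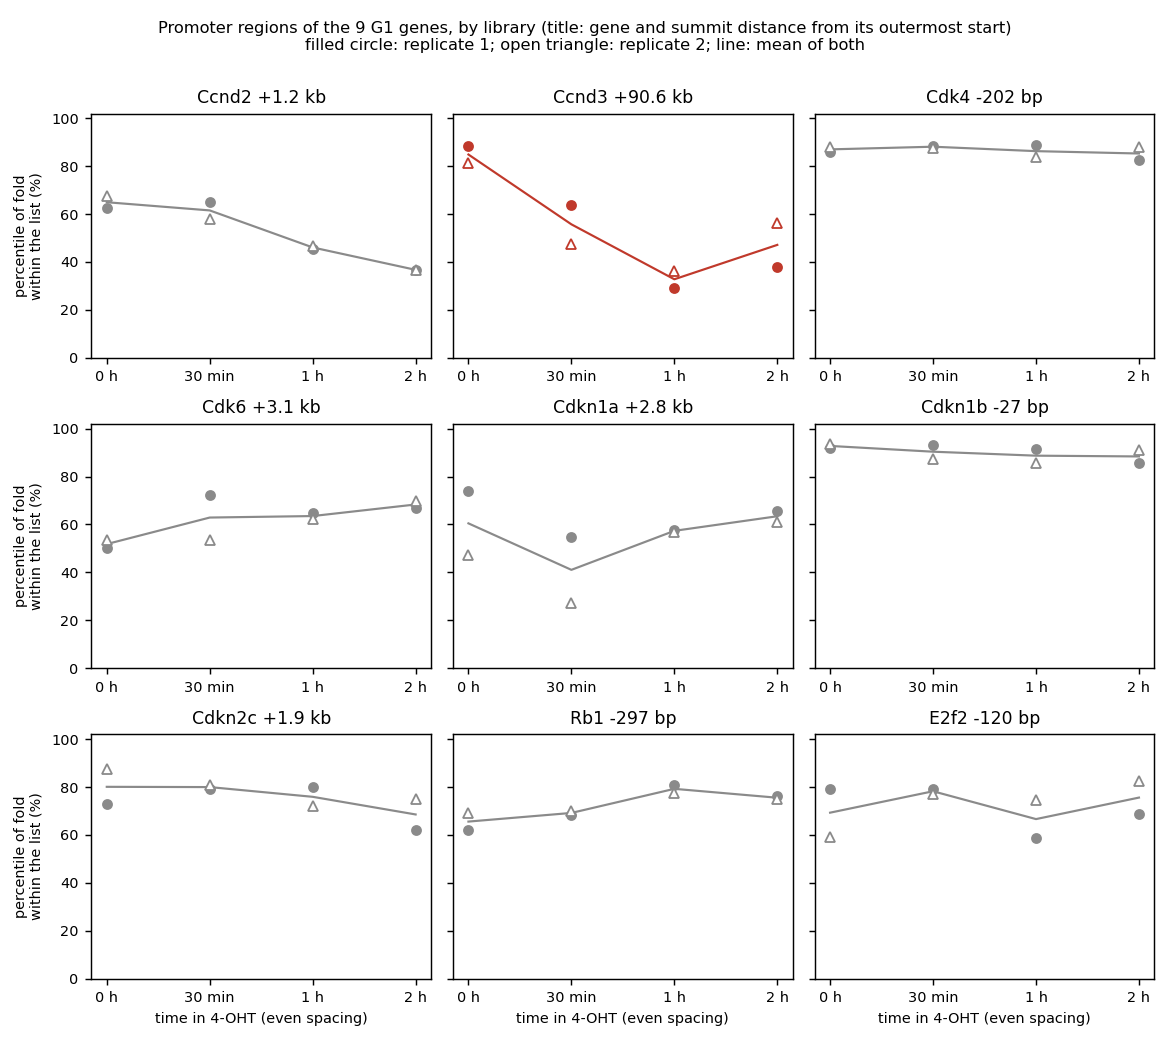
Percentile of the fold within the list (y axis, %) in each library at the 4 time points (x axis, evenly spaced) for the promoter region of each gene, the strongest at 0 h within 1 kb of one of its starts. Circles are replicate 1, triangles replicate 2 and lines their mean. In red is an internal promoter region of Ccnd3, 90.6 kb from the outer start, the only 1 of the 9 past the threshold at 2 h. The 0 h values that chose each region also enter its test. The mean of the Ccnd2 promoter region went from 64.9 to 36.7 without passing it.

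Rb1 held 37 regions, 12 of them tested, and 1 was lower. It lies in an Rb1 intron but 67 bp from the start of Lpar6, a receptor gene nested in Rb1 (chr14:73237864-73238068), so the nearest start is not that of Rb1. Its percentile was 88.9 and 82.9 before induction, 37.5 and 31.2 after 30 min, 28.1 and 13.0 after 1 h and 4.11 and 14.2 after 2 h. The 30 min libraries already lay far below those of 0 h, with a shift of −2.16 (adjusted p = 0.0186, not past 0.01). At 2 h the shift was −3.04 (SE 0.303, adjusted p = 0.000958), and summit fragments went from 51 and 30 to 9 and 10.

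The Rb1 promoter region, 297 bp before the start (chr14:73325640-73326305), stood at 62.1 and 69.1 before induction and 76.2 and 75.0 after 2 h (shift 0.21, SE 0.262, adjusted p = 0.614). An intron region 71.8 kb from the start (chr14:73253932-73254207) had percentiles of 75.2 and 52.8 at 0 h and 91.3 and 91.0, 89.5 and 92.9, then 93.6 and 95.3 after induction. All 6 treated libraries lay above both 0 h libraries, and the shift of 1.40 missed the threshold (adjusted p = 0.0114). It passed in 3 other settings at that threshold, with an adjusted p down to 0.00125. A region 19979 bp upstream was gained, at 77.7 and 49.4 at 2 h, and one beyond the gene end was lost from 61.1 and 62.8.

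E2f2, a gene of an activating E2F factor, held 13 regions and 8 tested ones, and 1 was higher, 4.8 kb beyond the gene end (chr4:136200725-136200952). Its percentile was 60.3 and 51.8 before induction, 77.9 and 74.4 after 30 min, 88.1 and 91.2 after 1 h and 93.9 and 91.5 after 2 h. The treated libraries all lay above the untreated ones, and summit fragments went from 16 and 11 to 56 and 45. The shift was 1.52 at 2 h (SE 0.258, adjusted p = 0.00424), and the call was lost when any 1 of the 4 libraries of 0 h and 2 h was left out (adjusted p up to 0.0398). The E2f2 promoter region, 120 bp before the start (chr4:136172008-136172309), stood at 79.3 and 59.4 before induction and 68.6 and 82.7 after 2 h, with a shift of 0.07 (adjusted p = 0.917). The most negative shift, in an intron 5.0 kb from the start, was −0.50 (adjusted p = 0.27).

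Of the 9 promoter regions, 1 passed the test at 2 h, while 5 of the 79 tested regions were lower and 3 higher. Each promoter region was chosen as the strongest of its gene at 0 h, and the same 0 h values enter the test, which favours falls. At Ccnd3 the other promoter regions described above, 38 bp and 43 bp from a start, had positive shifts that did not pass. The background was 4.71% lower and 2.28% higher, and 9 regions are too few to set against it. The other 8 promoter regions had shifts between −1.11 and 0.37 at 2 h and limma adjusted p-values between 0.0154 and 0.917. Standard errors were 0.251 to 0.507 over the 79 regions and the smallest shift called at 2 h was 1.34, so these values do not show that the promoters were constant. Of the 79 tested regions, 27 lay within 1 kb of a start of any gene in the GENCODE basic set. Of the 8 regions called at 2 h, 1 lay within 1 kb of a start of its own gene and 2 of another gene in that set, and 5 did neither. With 8 called regions these counts do not set them apart from the 79. The higher Cdk4 region is among the 5, since the Agap2 end beside it comes from the full annotation. Without regions near the starts of other genes, 3 were lower and 3 higher, an alternative chosen after the data were seen.

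The 30 min and 2 h libraries of the 8 regions called at 2 h were also compared directly, though the 2 h libraries took part in choosing these regions. Between 30 min and 2 h, none of the 8 passed (limma, adjusted p = 0.0674 to 0.728). The 30 min values given above for these regions are descriptions, since the 0 h libraries that chose the regions enter them too, and no order in time is read from them. The 5 lower regions and 1 of the 3 higher ones were past the threshold at 1 h as well, in comparisons that share those libraries.

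Presence and absence gave a second view of the same genes. At 2 h, 8 regions were lost, with a peak in both 0 h lists and neither 2 h list, which is 7.8% of those found in both untreated lists, against a background of 16.6%. In the reverse direction 15 were gained, 12.9% of the 116 present in both 2 h lists, against a background of 20.5%. Both shares lay below the background, without a test. At 30 min, 7 were lost (6.9%, background 10.9%) and 14 gained (12.3%, background 10.3%). The 1 h lists gave 9 lost (8.8%, background 14.6%) and 11 gained (10.0%, background 17%). Of the lost regions 5 were absent from all 6 lists after induction, and of the gained regions 8 were present in all 6. These 2 counts were not made over all regions, so they have no background. Most were weak: the lost Cdk6 region was the only 1 with over 20 fragments in both 0 h lists, and 3 gained ones, near Cdk4, Cdk6 and Cdkn1b, had over 20 in both 2 h lists. Of the gained regions 6 lay near Cdk6, and 10 of the 15 lay in introns. Among the lost, a Ccnd3 intron region 62.5 kb from the start had stood at the 80.9th and 72.7th percentile, and among the gained, a Ccnd3 region near Bysl reached only 26.4 and 5.20.

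**Figure D4:**
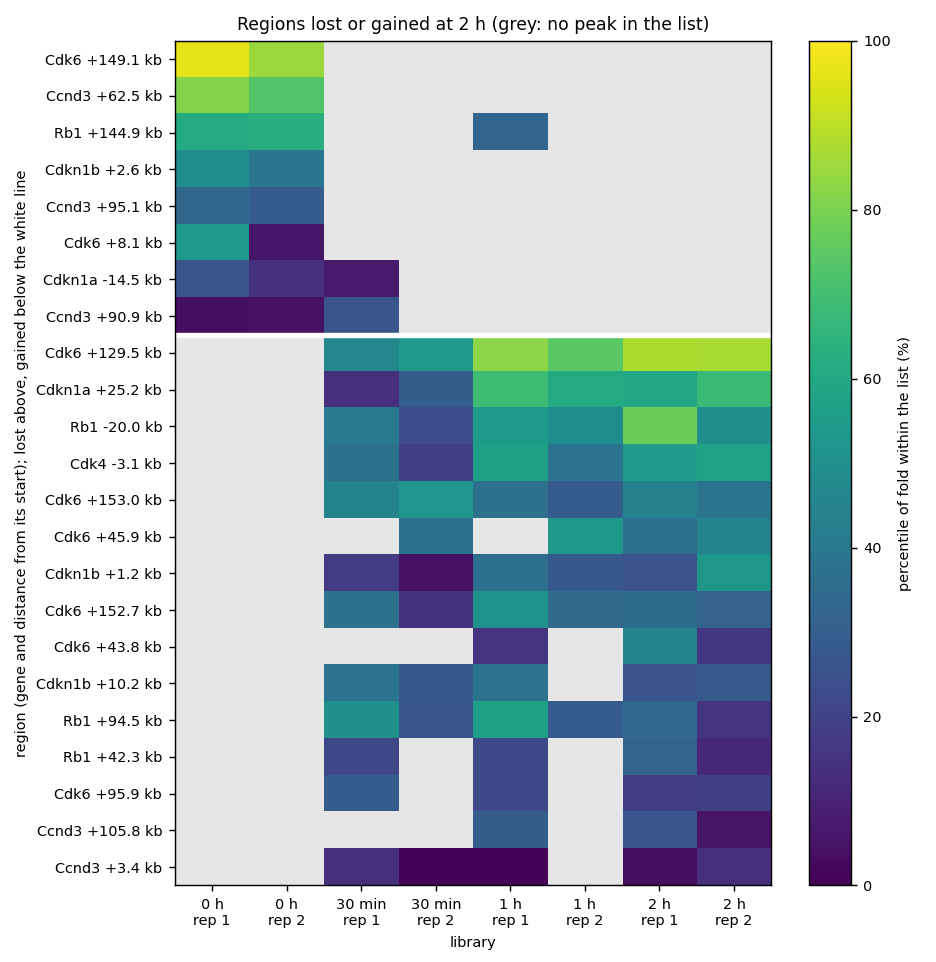
Percentile of the fold within the list (colour, %) of the 8 regions lost and the 15 gained at 2 h (rows, named by gene and distance from its start) in each of the 8 libraries (columns), with grey where the list had no peak. The lost Cdk6 region at the top stood at 95.8 and 85.0 at 0 h and in no later list, and the gained Cdk6 region below the white line went from no peak to 87.7 and 86.7.

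The sequences were compared with the shifts by counting Ikaros core words, on both strands and with overlaps, in the 200 bp around each summit. The 79 regions held 4.92 ± 2.37 words (SD), against 4.41 ± 2.35 over all 47875. The 5 lower regions held 6.8 ± 2.86, the 3 higher ones 3.67 ± 0.58 and the other 71 held 4.85 ± 2.33. The spread was wide. The Ccnd3 intron region at 3.0 kb held 10 words, a count reached by 2.77% of all tested regions. The called Ccnd3 region at 90.6 kb held 9 and the region at Lpar6 7. The falling Cdk6 region held only 5 and the falling Cdk4 region 3, which 78.2% of all regions reach. The Ccnd2 promoter region held 11, reached by 1.31% of all regions, and a Ccnd2 region not past the threshold held 12. The 3 higher regions held 4, 4 and 3, where 55.9% of all tested regions held 4 or fewer and 38.5% held 3 or fewer. Among the printed sequences, the lost Cdk6 region held 8 words and the gained one 2.

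Longer words were counted too. GGGAA or TTCCC occurred in 57.0% of the 79 regions and in 43.5% of all tested regions, in 3 of the 5 lower regions and in none of the 3 higher ones. TGTGGT or ACCACA, the core of a Runx site, occurred in 26.6% of the 79 and 23.3% of all. These longer words were chosen after the data were seen, a match is not a bound site, and binding was not analysed here.

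**Figure D5:**
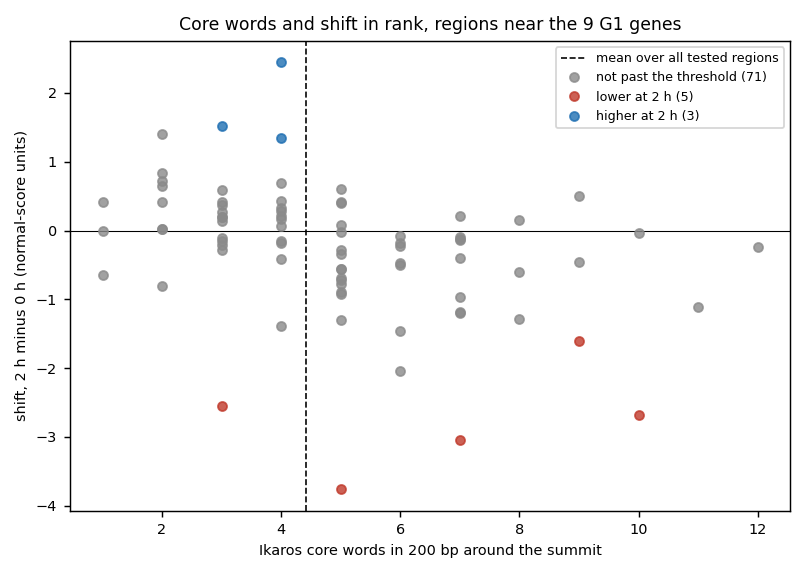
Shift in rank from 0 h to 2 h (y axis, normal-score units) against the number of Ikaros core words in 200 bp around the summit (x axis), for the 79 tested regions, coloured by whether they were lower (5), higher (3) or not past the threshold (71). The dashed line marks the mean of 4.41 words over all 47875 tested regions. The 3 higher regions lie to its left, as do 55.9% of all tested regions.

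The wider G1 and S phase pathway was read in the same way from 24 other genes, among them Ccnd1, the cyclin E genes, Cdk2, the other E2F genes and the other inhibitor genes. They held 282 regions and 91 tested ones, and at 2 h 1 was lower (1.1%, background 4.71%) and 0 were higher (limma, background 2.28%). Before adjustment, 11 were lower (12.1%) and 13 higher (14.3%) at p under 0.05, against 17.4% and 17.1% over all tested regions. The lower one lies 15002 bp from the start of Skp2, whose product marks the Cdkn1b protein for degradation (chr15:9140273-9140569), and is named after its values were seen. Its percentile was 99.1 and 99.2 before induction, 94.1 and 87.8 after 30 min, 76.9 and 77.1 after 1 h and 77.4 and 78.5 after 2 h, with a shift of −2.01 (SE 0.263, adjusted p = 0.00168). The other 23 genes had no called region. Of the 24, 16 regions were lost and 26 gained at 2 h (12.5% and 17.9% of those present at 0 h and at 2 h, with backgrounds of 16.6% and 20.5%). At the 9 genes, 6 had at least 1 called region at 2 h, and Ccnd2, Cdkn1b and Cdkn2c had none. The number of tested regions differed between genes, from 4 at Cdkn1b and Cdkn2c to 15 at Ccnd3 and Cdk6. The share of genes with a call over all genes was not counted, so these counts of genes do not set the 9 apart.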

How the data were processed

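ATAC-seq libraries of 8 samples, 2 at each of 4 time points, were grouped by their titles. The authors aligned reads with BWA 0.7.17 in an nf-core workflow, shifted ends for the transposase (deepTools 2.3.5), kept fragments of up to 120 bp and called peaks per library with MACS2 2.1.2 without a control. The deposited lists give, per peak, a fold over local background (a ratio), a −log10 p-value and a −log10 q-value. The methods text names a human genome, but the labels name GRCm38 and every peak lies inside its chromosomes. The authors' exclusion list was not used here.

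Overlapping peaks were merged, the highest fold in each region was ranked within each list, and regions in all 8 lists were fitted as normal scores with limma 3.58.1 (lmFit, eBayes, 4 groups in 1 model, R 4.3.3). Benjamini-Hochberg adjustment ran over all 47875 regions at 0.01. Fragments at the summit were recovered from fold and p-value under the Poisson model of the caller. Both steps were tested on simulated data. The named regions of each gene were the promoter region, every called region, the largest negative and positive shift, and the strongest lost and gained region. Members and lists were chosen with earlier results of these data known. Of the listed pre-B markers, 1 is not reported here.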

Additional observations from a re-analysis of the deposited data

How the results depend on the processing

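Each library alone sets a limit: with 2 replicates a time point, the median peak has 11 to 14 fragments, and calls near the threshold come and go. Leaving out 1 library gave 0 lower regions at 30 min, 0 to 6 at 1 h and 0 to 5 at 2 h, and 0 higher at 30 min, 0 to 1 at 1 h and 0 to 2 at 2 h. The lowest values at 2 h came without the second 0 h library (0 lower and 0 higher, and none in the whole table) and without the second 2 h library (3 lower and 0 higher), and at 1 h no call was left without either 0 h or either 1 h library. Leaving out 1 library relaxes loss and gain: lost regions then numbered 7 to 19 at 30 min, 11 to 22 at 1 h and 9 to 20 at 2 h, and gained ones 18 to 32, 16 to 37 and 21 to 34. Ranks among all peaks of a list gave 3 lower and 2 higher at 1 h, and of all calls at 2 h 52.1% were then lower, against 67.4%. Ranks of −log10 p gave 3 higher at 1 h and 8 lower at 2 h. Fragments over background, centred by library after a median rise of 0.22 (log2), gave 2 lower and 1 higher at 30 min, 10 and 2 at 1 h, and 14 lower at 2 h. An adjusted p under 0.05 gave 3 and 1, 12 and 4, and 15 lower at 2 h. With regions in at least 2 lists, 165 were tested near these genes instead of 79, and 126504 in all. This gave 2 lower at 30 min, 4 higher at 1 h, and 12 lower and 7 higher at 2 h. The share higher at 2 h over all regions was then 2.36%, against 2.28%. A trended robust prior gave 1 lower at 30 min, 4 higher at 1 h and 8 lower at 2 h. Calls rose over all regions as well. At 2 h the share lower over all regions was 9.37% with fragments and 11.07% under 0.05, against 4.71%. It was 6.27% with at least 2 lists, 6.83% with the robust prior and 5.28% with −log10 p. At 30 min the share lower over all regions was 1.3% with fragments and 1.49% under 0.05. It was 0.55% with at least 2 lists and 0.44% with the robust prior. Peaks limited to −log10 q of 5 or more gave 2 higher at 1 h and 7 gained at 30 min. Summit windows and a 10 kb limit each gave 0 higher at 1 h, and a 50 kb limit gave 14 lost and 17 gained at 1 h and 14 and 23 at 2 h. Without regions at starts of other genes 3 were lower at 2 h. The cause of these differences was not tested.

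Same-numbered replicates hardly deviated together in their ranks (r = 0.017 to 0.040), which cannot show whether the numbers pair samples. With the replicate number as a block, 5 were lower and 1 higher at 1 h, and 4 and 3 at 2 h. The Ccnd3 region at 90.6 kb then had a limma adjusted p of 0.012 at 2 h. Directions of the named regions changed at 2 h for 4 promoter regions without a call: Cdk4 (0.088 with −log10 p, 0.027 with fragments), Cdkn1a (0.062 with ranks among all peaks, 0.016 with fragments, 0.239 without 0 h replicate 1, −0.544 at the other end of its leave-one-out range), Cdkn1b (0.056 with −log10 p, 0.03 with fragments) and E2f2 (−0.265 without 0 h replicate 2, −0.249 without 2 h replicate 2, 0.409 at the other end). In 10 cases a named region had no value under a setting, as it was not in all lists.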
